A study of Homo sapiens with 6 samples.

Results

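The ATF4 arm of the stress response, with the genes of serine, glycine and asparagine synthesis, was followed here in a human retinal pigment epithelial cell line that overexpressed CD51-ICD. The 10 genes, of 58735 in the deposited count table, were found by symbol: ATF4, ATF5, DDIT3, TRIB3, PPP1R15A, ASNS, PHGDH, PSAT1, PSPH and SHMT2. They were chosen by known function together with their difference in count between the groups, so the differences between groups given for these 10 genes are a description and carry no test. All cells were ARPE-19, an established line derived from human retinal pigment epithelium, and messenger RNA was sequenced from 6 libraries. The 3 NC libraries came from wild-type control cells, and the 3 OE CD51 ICD libraries from cells overexpressing CD51-ICD. CD51 is the integrin alpha V subunit encoded by ITGAV. The labels give no clone, vector, culture time or dose, and do not say whether replicates were separate cultures. The p-values below weigh the difference between groups against the spread among libraries of a group. That spread could therefore be technical alone.

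ATF4 is the transcription factor at the centre of the integrated stress response. Stress-sensing kinases phosphorylate the translation factor eIF2, general protein synthesis slows, and ATF4 messenger RNA is then translated more, so the amount of ATF4 protein need not follow the amount of its messenger RNA. ATF4 protein pairs with other leucine zipper factors and switches on genes for amino acid uptake and synthesis. Among these are the enzymes that make serine from a glycolytic intermediate. ATF4 also switches on DDIT3, which is tied to prolonged stress, and genes such as TRIB3 and PPP1R15A that limit or end the response. In retinal pigment epithelium, serine made by this route is a source of glycine, glutathione and one-carbon units.

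Total counts ran from 13616694 to 16934668 per library. As a check of the labels, ITGAV was at 98.4 ± 12.9 CPM in NC (CPM is the count scaled to library size; mean ± SD, n = 3) against 448 ± 83.5 CPM in OE CD51 ICD. Reads of the construct and of the native gene cannot be told apart in gene counts. More genes had at least 1 count in each OE CD51 ICD library (20230 to 20610) than in any NC library (19540 to 20178; two-sided exact permutation p = 0.1, the smallest that 3 against 3 allows). Of 15 retinal pigment epithelium markers, 10 were abundant enough to test and RPE65 and TTR had no count in any library, and of the 10, RLBP1, PMEL, PAX6 and TJP1 were called higher, MITF lower and 5 not called, with the epithelial keratin KRT8 at 3718 ± 189 CPM in NC against 3461 ± 237 CPM with CD51-ICD. Of 10 microglia and leukocyte markers, 9 averaged under 1 CPM and P2RY12 and C1QA had no count; their summed level ran from 3.31 to 4.67 CPM in NC and from 31.4 to 37.1 CPM in OE CD51 ICD, nearly all of it CSF1R. Of 10 endothelial and neural markers, 9 averaged under 1 CPM, and their sum ran from 5.15 to 5.59 CPM in NC and from 3.29 to 6.49 CPM in OE CD51 ICD.

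Of the 10 genes, 7 were lower in OE CD51 ICD, and ATF4 itself was slightly higher. The 7 lower genes were ATF5, TRIB3, PPP1R15A, PHGDH, PSAT1, PSPH and SHMT2, by 24.8% to 55.6% in the fitted fold change. The groups overlapped for DDIT3, and ASNS had too few counts to enter the fit. The genes are sorted here by the threshold used for the whole table, an adjusted p under 0.05 in edgeR's quasi-likelihood test over 13787 genes; since their difference helped to choose them, this describes them and supports nothing. Over all genes tested, 25.8% passed as lower and 25.2% as higher, 51.0% in all. The groups did not overlap for the same 7 lower genes and for ATF4, against 29.5% of all genes apart as lower and 28.0% apart as higher. In this fit only ATF5 was both called and at least 2-fold lower, as were 5.83% of all genes tested. The median log2 fold change of the 9 tested genes was -0.56, and that of all genes tested 0.01.

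**Figure D1:**
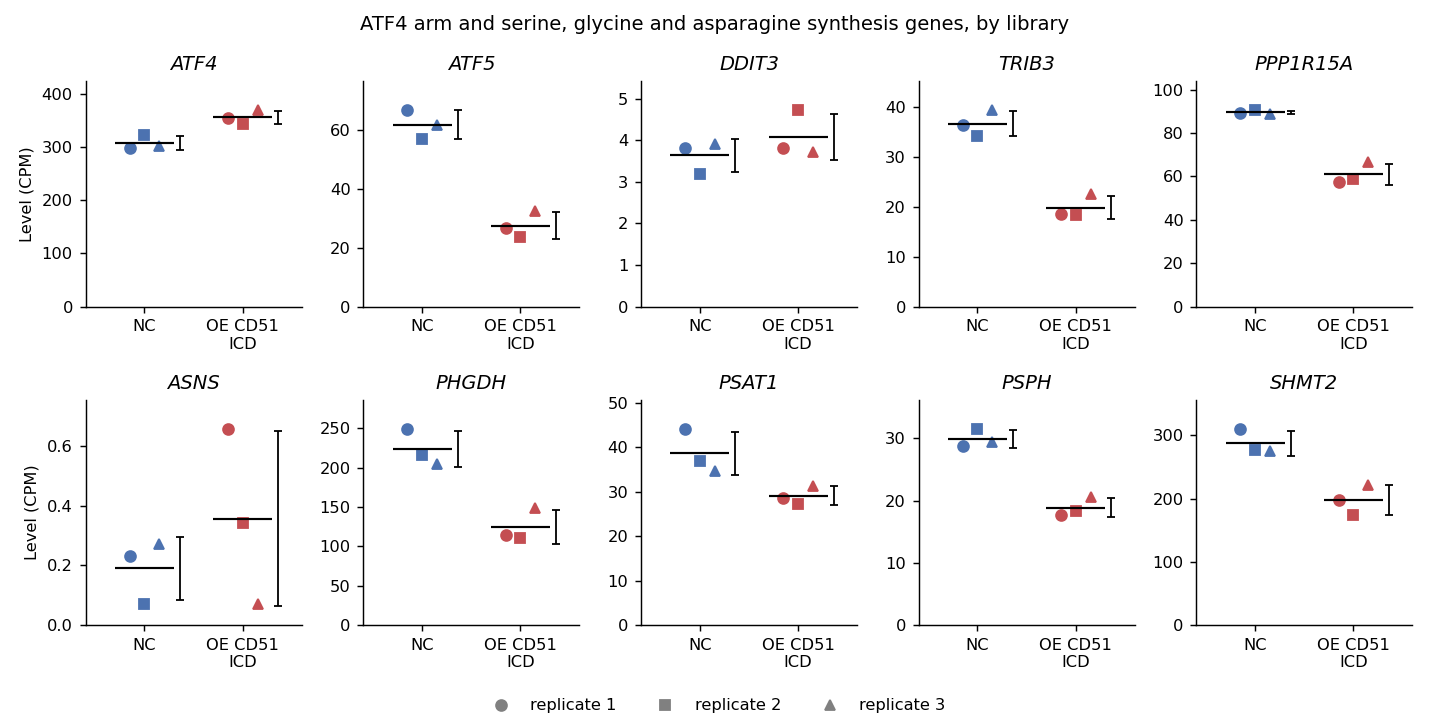
Level of each of the 10 genes in CPM (y axis from 0, scaled per gene) in NC and OE CD51 ICD; each symbol is 1 library, the horizontal line is the mean of 3 libraries and the bar beside it is 1 SD. All 3 OE CD51 ICD libraries lie below all 3 NC libraries in 7 genes, all 3 lie above in ATF4, and the groups overlap in DDIT3 and ASNS.

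ATF4 was at 299, 324 and 303 CPM in NC replicates 1 to 3 and at 355, 345 and 370 CPM in OE CD51 ICD replicates 1 to 3. Each OE CD51 ICD library lay above each NC library, but the step between the highest NC and the lowest OE CD51 ICD library was small. The log2 fold change was 0.21 ± 0.08 (SE), or 1.16-fold. It was positive in all 16 processing alternatives, from 0.14 to 0.39, but did not pass the threshold with library size as the only scaling (0.14), with no filter beyond 1 count (0.21), or without NC replicate 1 (0.19), NC replicate 3 (0.20) or OE CD51 ICD replicate 1 (0.22). With the trend with GC content removed it was 0.39, and with the trend with gene length removed 0.35. ATF4 protein was not measured here.

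ATF5, a leucine zipper factor related to ATF4 whose translation is likewise favoured under stress, moved the other way. It was at 66.6, 57.1 and 61.8 CPM in NC and at 26.5, 23.5 and 32.4 CPM in OE CD51 ICD. The lowest NC library stood well above the highest OE CD51 ICD library, and the log2 fold change was -1.17 ± 0.11 (SE), 55.6% below the NC mean. With the GC trend removed the log2 fold change of ATF5 was -0.94, short of 2-fold. Of the exon bases of ATF5, 23.7% lie under exons of other genes, 626 bases of them under NUP62, a nuclear pore gene on the opposite strand, named here only for this overlap. NUP62 also fell, from 122 ± 10.5 to 71.3 ± 2.49 CPM (n = 3 each; edgeR adjusted p = 9.70e-09), and its part in the ATF5 value was not tested.

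TRIB3 encodes a pseudokinase that is induced by ATF4 and DDIT3 and feeds back on them. It was at 36.5, 34.3 and 39.4 CPM in NC and at 18.6, 18.4 and 22.7 CPM in OE CD51 ICD. The log2 fold change was -0.89 ± 0.12 (SE), or -0.64 with the GC trend removed. The 3 OE CD51 ICD libraries all lay below the NC libraries, 45.9% lower in the mean. No exon base of TRIB3 is shared with another annotated gene.

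PPP1R15A encodes GADD34, the inducible subunit that directs a phosphatase to eIF2 and so ends the response. It was at 89.4, 90.5 and 88.9 CPM in NC and at 57.5, 58.8 and 66.5 CPM in OE CD51 ICD. The NC libraries were nearly level, every OE CD51 ICD library was lower, and the log2 fold change was -0.56 ± 0.09 (SE), which became -0.34 with the GC trend removed. Its constitutive counterpart PPP1R15B is described with the eIF2 genes.

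DDIT3 encodes CHOP, a factor tied to prolonged stress and cell death. It was at 3.82, 3.19 and 3.92 CPM in NC and at 3.82, 4.72 and 3.72 CPM in OE CD51 ICD. The groups overlapped, and the log2 fold change of 0.16 ± 0.22 (SE) had a 95% interval from -0.28 to 0.60. A small fall or a moderate rise could therefore have been missed at this depth. The gene rested on 45 to 69 counts per library. Of its coding bases, 33.5% lie under exons of other genes, all on the opposite strand, with 355 exon bases shared with MARS, the methionyl-tRNA synthetase gene, likewise named for the overlap. MARS fell from 171 ± 2.77 to 134 ± 11.8 CPM (n = 3 each; edgeR adjusted p = 7.19e-04), and the part of this overlap in the DDIT3 count was not tested.

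The serine route runs through 3 enzymes in turn. PHGDH, phosphoglycerate dehydrogenase, takes the first and committed step, and was at 249, 216 and 205 CPM in NC and at 114, 110.4 and 149 CPM in OE CD51 ICD. The groups stood apart, the mean was 44.3% lower, and the log2 fold change was -0.85 ± 0.10 (SE). PSAT1, the aminotransferase of the second step, was at 44.1, 37.0 and 34.7 CPM in NC and at 28.6, 27.3 and 31.3 CPM in OE CD51 ICD. NC replicate 1 was the highest and the gap between NC replicate 3 and OE CD51 ICD replicate 3 was narrow; the log2 fold change of -0.41 ± 0.11 (SE) was the smallest of the 7 in this fit, at -0.26 with the length trend removed and -0.59 with the GC trend removed.

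PSPH, the phosphatase that releases serine in the last step, was at 28.8, 31.5 and 29.3 CPM in NC and at 17.7, 18.3 and 20.6 CPM in OE CD51 ICD. The groups were clearly apart, with a log2 fold change of -0.66 ± 0.12 (SE) and a mean 36.8% lower. SHMT2, the mitochondrial enzyme that turns serine into glycine and a one-carbon unit, was at 310.0, 277 and 275 CPM in NC and at 198, 174 and 221 CPM in OE CD51 ICD. All OE CD51 ICD libraries were below all NC libraries, and the log2 fold change was -0.54 ± 0.09 (SE), or -0.36 with the GC trend removed. All 4 genes of the path from phosphoglycerate to glycine were thus lower; PHGDH had the largest fitted difference and PSAT1 the smallest, though with the GC trend removed the smallest was SHMT2 (-0.36, against -0.59 for PSAT1), and the differences between genes were not tested.

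ASNS, the enzyme that makes asparagine, had 4, 1 and 4 counts in the NC libraries and 10, 5 and 1 in the OE CD51 ICD libraries, 9 and 16 in sum. It was too low to test, and the groups overlapped. In the annotation used for the deposited table, however, 96.1% of the 1752 coding bases of ASNS also belong to AC079781.5, a processed transcript on the same strand that spans the gene. Of all 4455 exon bases of ASNS, untranslated ones included, 44.6% are shared and 2470 belong to ASNS alone. That transcript had 49 counts over the 6 libraries. The sources used here do not say how the counting treated reads shared between genes, and the ASNS count therefore cannot be read as its expression. The part of the overlap in the low count was not tested.

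**Figure D2:**
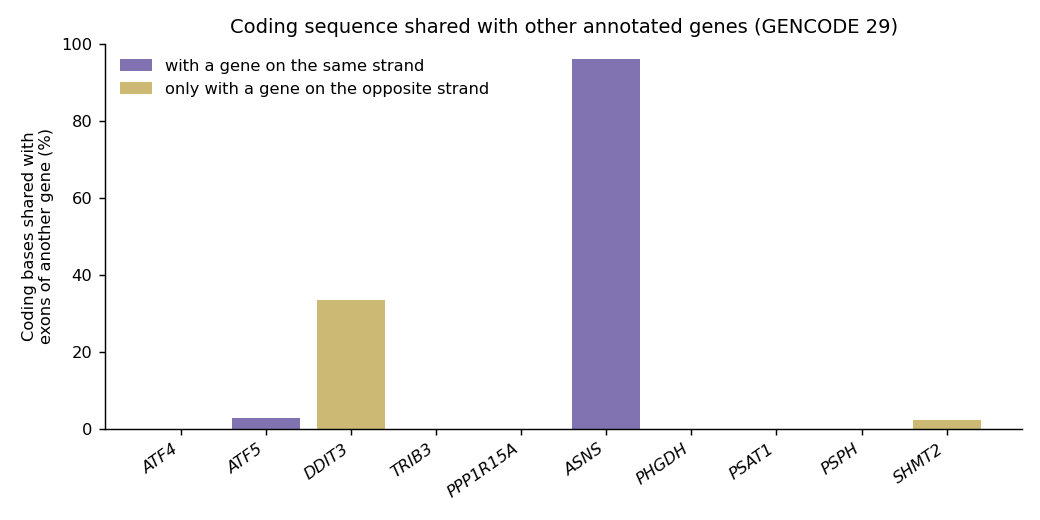
Percent of each gene's coding bases that also lie in exons of another GENCODE 29 gene, on the same strand (purple) or only on the opposite strand (yellow). ASNS stands at 96.1% and DDIT3 at 33.5%; the other 8 genes share 2.79% or less.

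ATF4, TRIB3, PPP1R15A, PHGDH, PSAT1 and PSPH share no exon base with another annotated gene. Annotated processed copies took few counts: ATF4P3 had 29 counts over the 6 libraries, ASNSP3 had 1, and the other 11 listed copies of ATF4, ASNS, PSAT1 and PSPH had 0. Against these, ATF4 had at least 4483 counts in each library.

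Levels between genes were compared on the FPKM scale, which divides by gene length. In NC the order was ATF4 at 122 ± 5.30 FPKM, SHMT2 at 58.9 ± 3.90, PPP1R15A at 28.8 ± 0.218, PHGDH at 24.1 ± 2.41, ATF5 at 20.8 ± 1.58, PSAT1 at 17.5 ± 2.16, PSPH at 10.7 ± 0.511, TRIB3 at 10.6 ± 0.766 and DDIT3 at 2.77 ± 0.306 (SD, n = 3 each), with ASNS at 0.0426 FPKM. PHGDH and ATF5, ATF5 and PSAT1, and PSPH and TRIB3 overlapped in range and were not ordered beyond their spread. In OE CD51 ICD, ATF4 was at 140 ± 6.61 FPKM and ATF5 at 9.20 ± 1.62 FPKM, which placed ATF5 (7.75 to 10.9 FPKM) below PSAT1 (12.1 to 14.3 FPKM). The deposited length of PHGDH was 9217 bases, of which 1771 are coding, so its FPKM is low for its count.

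The 3 OE CD51 ICD libraries were not alike. Replicate 3 had the highest level of the 3 in all 7 lower genes, hence the value nearest to NC, and replicate 2 had the lowest in 5 of them. The same order was common in the whole table: of the 3559 genes called lower, replicate 3 was the highest in 63.1% and replicate 2 the lowest in 59.3%. Without OE CD51 ICD replicate 3 the fitted log2 fold change of PHGDH was -0.99, and without replicate 2 it was -0.75.

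**Figure D3:**
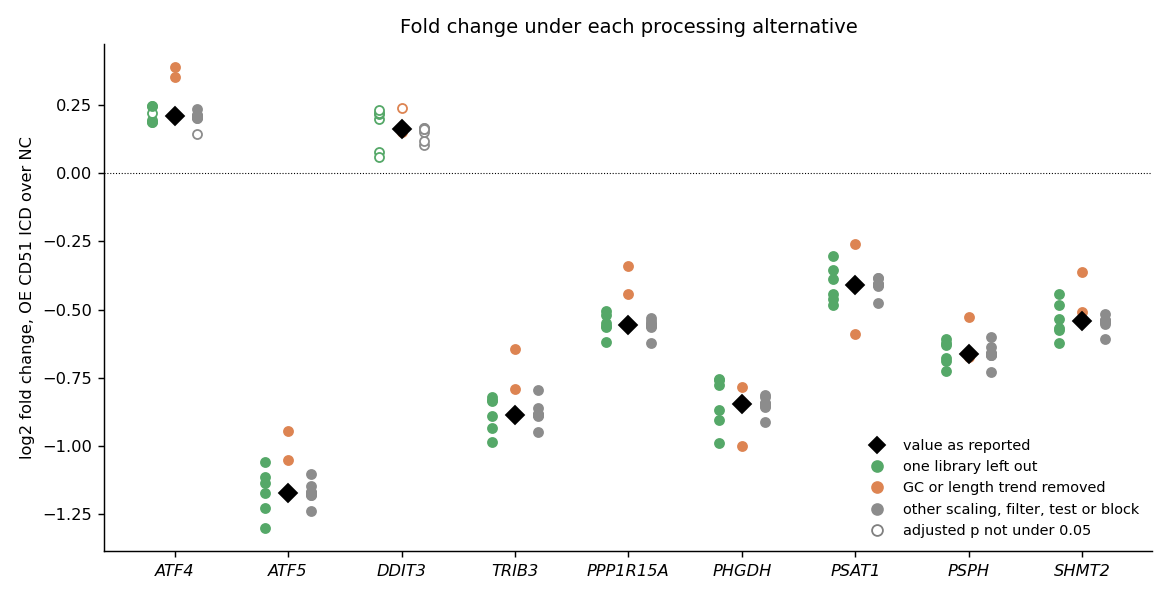
Log2 fold change, OE CD51 ICD over NC, of the 9 tested genes as reported (black diamond) and under each alternative (circles; open where the adjusted p was not under 0.05). The 7 lower genes stay below 0 throughout, ATF4 stays between 0.14 and 0.39, and DDIT3 is open in every alternative that gave a value.

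Promoter sequence was read for the genes that RefSeq lists, on GRCh38.p14, from 250 bases before to 50 after the start site. Of the 10 genes, 8 had an entry; PSPH and SHMT2 were not among them. The C/EBP-ATF element bound by ATF4 paired with a C/EBP factor was searched as TGATGNAA on both strands, and was found in the windows of 4.46% of 27305 genes. Among the 8 genes it was found in 1, ASNS. In a list of other ATF4 target genes it was found in 6 of 23, among them CHAC1, and in the promoter of CEBPG, a partner of ATF4. The matches are shown in capitals in windows of 30 bases, 5′ to 3′ on the strand of the gene, so that the element of ASNS can be set beside those of 2 genes that the text describes further on.
ASNS, chr7:97872458-97872487, minus strand: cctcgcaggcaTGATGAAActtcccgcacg
CHAC1, chr15:40953251-40953280, plus strand, element reversed: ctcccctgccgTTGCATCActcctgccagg
CEBPG, chr19:33374060-33374089, plus strand: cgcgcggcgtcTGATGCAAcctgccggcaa
The palindromic cAMP response element, TGACGTCA, was in the windows of 2.25% of genes and, among the 8, in PPP1R15A.
PPP1R15A, chr19:48872352-48872381, plus strand: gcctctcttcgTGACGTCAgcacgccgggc
A match is a run of letters, not a bound site, and windows of this length do not cover introns or distant elements.

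Some genes of the unfolded protein response that are driven by ATF6 and XBP1 carried another element, the ER stress element. It was searched on both strands as CCAAT and CCACG with any 9 bases between them. Its first 5 letters are a CCAAT box. It was in the windows of only 25 of 27305 genes (0.0916%), in 6 of 23 genes of that list and in none of the 8. The 2 windows shown, with the element in capitals, belong to genes whose rise is given with that list.
HSPA5, chr9:125241385-125241414, minus strand: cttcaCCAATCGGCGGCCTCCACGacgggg
XBP1, chr22:28800597-28800626, minus strand: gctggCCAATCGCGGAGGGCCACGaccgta

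In all, 7 lists of genes around ATF4, holding 137 genes, put the 10 in context. The lists were chosen with earlier results of these data known, so their shares are a description and no independent support. Of the 123 that could be tested, 41 were higher, 42 lower and 40 not called. The counts of each list stand against 25.2% higher and 25.8% lower over all genes tested, and differences between lists were not tested. The genes of the lists were tested in the same edgeR fit as all other genes.

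The eIF2 kinases and the machinery of eIF2 came to 17 genes, of which 6 were higher (35.3%), 5 lower (29.4%) and 6 not called, shares near those of all genes, with a median log2 fold change of 0.24. Of the 4 kinases, EIF2AK4 (GCN2, which senses amino acid shortage) rose from 23.3 ± 1.27 to 35.5 ± 4.45 CPM (log2 fold change 0.61, adjusted p = 5.89e-05). EIF2AK2 (PKR) rose from 27.9 ± 4.42 to 36.1 ± 3.23 CPM (adjusted p = 0.00995), a call lost in 6 of 16 alternatives, among them without NC replicate 3 (adjusted p = 0.0918). EIF2AK3 (PERK, the sensor of the endoplasmic reticulum) was at 8.96 ± 2.55 and 11.1 ± 1.98 CPM (adjusted p = 0.153), and EIF2AK1 (HRI) at 126 ± 13.9 and 145 ± 11.6 CPM (adjusted p = 0.0648). These last 2 were not called, though EIF2AK1 passed in 4 of 16 alternatives and EIF2AK3 in 2, without NC replicate 2 (adjusted p = 0.0353) or OE CD51 ICD replicate 3 (adjusted p = 0.046).

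PPP1R15B, the constitutive subunit that directs the phosphatase to eIF2, rose from 26.9 ± 3.32 to 38.9 ± 7.14 CPM (log2 fold change 0.54, adjusted p = 6.61e-04), the opposite direction to PPP1R15A. DNAJC3, a co-chaperone that restrains PERK, rose from 16.3 ± 2.33 to 48.2 ± 7.92 CPM (1.57, adjusted p = 1.55e-11). The falls were in GCN1, the activator of GCN2 (442 ± 23.3 to 319 ± 23.5 CPM, adjusted p = 1.32e-05), and in 4 genes of the exchange factor eIF2B. EIF2B3 fell from 22.2 ± 0.280 to 11.2 ± 0.674 CPM (-0.98, adjusted p = 3.70e-07) and EIF2B5 from 85.8 ± 3.25 to 50.1 ± 2.97 CPM (-0.78, adjusted p = 1.89e-08). EIF2B1 (-0.30, adjusted p = 0.0166) and EIF2B4 (-0.24, adjusted p = 0.0469) were smaller and lost their calls in 4 and 10 of 16 alternatives. The count of higher genes in this list was 10 without OE CD51 ICD replicate 3 and 3 with the GC trend removed, and that of lower genes 3 without NC replicate 2, without NC replicate 3 or with the length trend removed.

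Among 13 factors that pair with or follow ATF4, 12 were tested, with 2 higher (16.7%), 3 lower (25.0%) and 7 not called, and a median of -0.19. JUN, an AP-1 subunit, fell from 261 ± 15.4 to 66.8 ± 5.94 CPM (log2 fold change -1.97, adjusted p = 1.08e-17). CEBPB, a C/EBP factor that pairs with ATF4, fell from 109 ± 4.16 to 44.9 ± 5.65 CPM (-1.27, adjusted p = 1.93e-12). BATF3, another AP-1 family factor, fell from 2.24 ± 0.726 to 0.934 ± 0.0675 CPM (adjusted p = 0.00359). CEBPG, the C/EBP partner whose element is printed above, was at 7.88 ± 0.154 and 9.59 ± 1.963 CPM (adjusted p = 0.175), and ATF3, a stress-induced factor that ATF4 switches on, at 15.0 ± 1.14 and 12.3 ± 0.676 CPM (adjusted p = 0.101). NUPR1, a small chromatin protein induced by ATF4, rose from 107 ± 9.29 to 150.1 ± 12.3 CPM (0.49, adjusted p = 2.39e-05). NFE2L2 (NRF2) rose from 18.9 ± 1.44 to 23.3 ± 2.67 CPM (adjusted p = 0.0443), a call lost in 9 of 16 alternatives. Without NC replicate 2, NC replicate 3, OE CD51 ICD replicate 1 or OE CD51 ICD replicate 2, the list held 1 higher gene.

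Other known targets of ATF4 moved in both directions. Of 30 listed, 23 were tested, 11 were higher (47.8%), 6 lower (26.1%) and 6 not called, and the median was 0.21. DDIT4, an inhibitor of mTORC1, rose from 50.6 ± 7.54 to 123 ± 11.8 CPM (log2 fold change 1.28, adjusted p = 5.53e-12). VLDLR, a lipoprotein receptor, rose from 15.3 ± 1.07 to 45.5 ± 6.41 CPM (1.57, adjusted p = 3.96e-12), and CTH, which makes cysteine from cystathionine, from 3.55 ± 0.377 to 9.69 ± 1.596 CPM (1.45, adjusted p = 2.94e-07). On the other side, STC2, a secreted glycoprotein, fell from 107 ± 14.5 to 47.4 ± 6.41 CPM (-1.18, adjusted p = 8.90e-11). LONP1, a mitochondrial protease, fell from 322 ± 17.5 to 206 ± 24.8 CPM (-0.64, adjusted p = 2.86e-07), and SLC3A2, the heavy chain of several amino acid transporters, from 408 ± 22.1 to 277 ± 13.2 CPM (-0.56, adjusted p = 6.08e-07).

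Several targets often used to read the ATF4 response were not called. CHAC1, which degrades glutathione, was at 1.82 ± 0.424 and 2.72 ± 1.004 CPM (adjusted p = 0.124) and passed with the GC trend removed (adjusted p = 0.0268) and when OE CD51 ICD replicate 1 was left out (adjusted p = 0.0342). SESN2, a leucine sensor, was at 39.7 ± 3.94 and 33.4 ± 3.02 CPM (adjusted p = 0.0524) and passed as lower with library size only (adjusted p = 0.018) and when OE CD51 ICD replicate 3 was left out (adjusted p = 0.0134). SLC7A11, the cystine transporter, was at 11.2 ± 1.95 and 8.95 ± 2.45 CPM (adjusted p = 0.14) and passed as lower in 3 of 16 alternatives, among them without OE CD51 ICD replicate 2 (adjusted p = 0.0217). A further 3 transport and amino acid genes of this list, chosen after their values were seen, went both ways. SLC7A5, the light chain that pairs with SLC3A2, fell from 1181 ± 72.2 to 902 ± 51.2 CPM (adjusted p = 1.24e-04). SLC7A1, an arginine transporter, rose from 208 ± 22.7 to 322 ± 6.89 CPM (adjusted p = 2.00e-07), and BCAT1, a branched-chain aminotransferase, from 60.4 ± 7.40 to 135 ± 21.5 CPM (adjusted p = 9.54e-11).

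**Figure D4:**
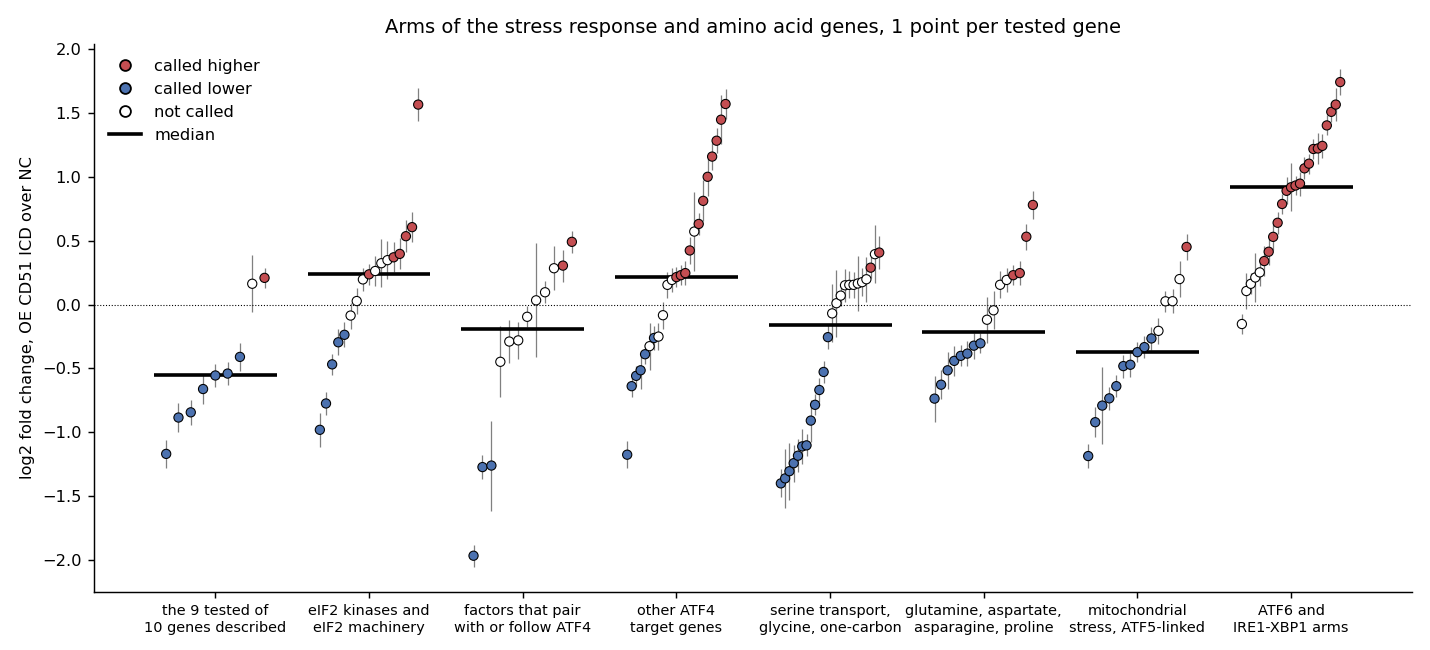
Log2 fold change, OE CD51 ICD over NC (y axis), of every tested gene in the set described and in 7 lists around it; points are genes with their SE, filled red or blue where called higher or lower, and the thick line is the list's median. Medians run from -0.56 in the set described to 0.92 in the ATF6 and IRE1-XBP1 list.

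In the list around serine, many more genes were lower than higher. Of 28 genes of serine transport, glycine and one-carbon metabolism, 24 were tested, 12 were lower (50%), 2 higher (8.33%) and 10 not called. The median of the 24 was -0.16, and 7 were called and at least 2-fold lower, as were 5.83% of all genes tested. SHMT1, the cytosolic counterpart of SHMT2, fell from 93.5 ± 3.97 to 58.8 ± 7.35 CPM (log2 fold change -0.67, adjusted p = 6.15e-07). SLC1A4, a transporter of serine and other small neutral amino acids, fell from 25.9 ± 2.96 to 10.97 ± 2.21 CPM (-1.24, adjusted p = 2.48e-08). CBS, which joins serine to homocysteine, fell from 24.6 ± 12.1 to 9.48 ± 1.86 CPM (-1.36, adjusted p = 1.46e-05). Its NC libraries were far apart, at 11.4, 27.1 and 35.2 CPM, and NC replicate 1 lay close to OE CD51 ICD replicate 2 (10.9 CPM). TYMS, thymidylate synthase, fell from 55.3 ± 4.36 to 20.9 ± 2.24 CPM (-1.40, adjusted p = 6.31e-12).

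A further 8 genes on this map, MTHFD1L included, are named after their values were seen, to follow the pathway step by step. In the cytosolic folate cycle, MTHFD1 fell from 158 ± 12.1 to 73.6 ± 3.79 CPM (adjusted p = 5.33e-12). In glycine breakdown and synthesis, GLDC fell from 15.3 ± 3.15 to 8.11 ± 0.615 CPM (adjusted p = 3.02e-05), GCSH from 6.08 ± 0.916 to 2.45 ± 0.178 CPM (adjusted p = 1.51e-05) and GCAT from 23.4 ± 0.836 to 10.8 ± 1.55 CPM (adjusted p = 8.02e-08). The other 2 genes of the glycine cleavage system did not pass: DLD was at 19.4 ± 3.03 and 21.5 ± 0.856 CPM (log2 fold change 0.15, adjusted p = 0.347), and AMT had too few counts to test. AHCY, which clears S-adenosylhomocysteine, fell from 465 ± 17.2 to 270 ± 29.7 CPM (adjusted p = 3.52e-09).

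The mitochondrial folate enzymes beyond SHMT2 did not pass as lower. MTHFD2, itself a known ATF4 target, was at 36.2 ± 1.54 and 40.2 ± 3.86 CPM (log2 fold change 0.15, adjusted p = 0.222; -0.04 with the GC trend removed). MTHFD1L was at 82.5 ± 3.54 and 86.6 ± 1.06 CPM (0.07, adjusted p = 0.509). The 2 genes called higher were MTR, methionine synthase, which went from 21.2 ± 3.69 to 28.2 ± 1.82 CPM (adjusted p = 0.00791) and lost its call in 5 of 16 alternatives, and SFXN3, a mitochondrial serine carrier, which went from 127 ± 8.67 to 155 ± 5.74 CPM (adjusted p = 0.00392). Without NC replicate 2, 1 gene of the list was called higher.

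**Figure D5:**
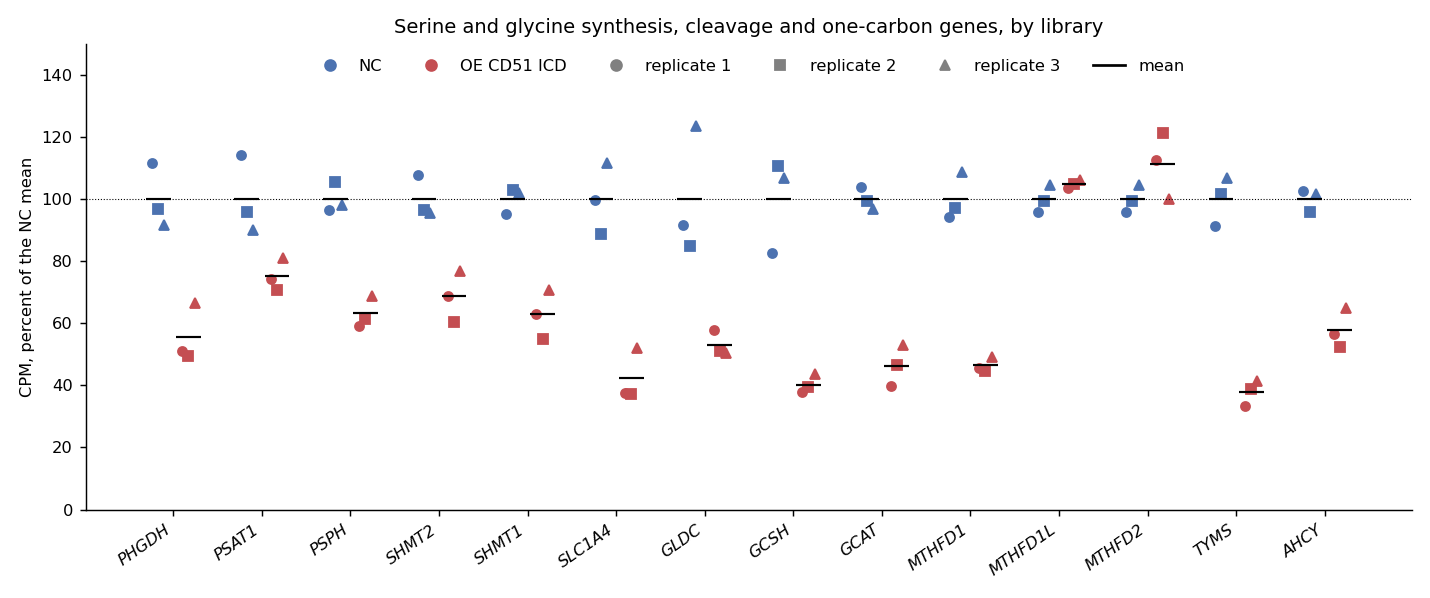
CPM of 14 serine, glycine and one-carbon genes as a percent of each gene's NC mean (y axis from 0; dotted line at 100); symbols are libraries, blue for NC and red for OE CD51 ICD, and short lines are means of 3. The OE CD51 ICD libraries lie below the NC libraries in 12 genes, and the groups overlap in MTHFD1L and MTHFD2.

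Of 19 genes of glutamine, aspartate, asparagine and proline metabolism, 16 were tested, 4 were higher (25.0%), 8 lower (50%) and 4 not called, with a median of -0.21. OAT, ornithine aminotransferase, rose from 39.0 ± 2.19 to 56.4 ± 6.19 CPM (log2 fold change 0.53, adjusted p = 5.82e-05). ALDH18A1 (0.23, adjusted p = 0.0168) and PYCR1 (0.25, adjusted p = 0.0255), both of proline synthesis, were also called higher but lost their calls in 4 and 7 of 16 alternatives. PYCR3, of the same last step as PYCR1, fell from 51.1 ± 6.32 to 33.1 ± 4.63 CPM (-0.63, adjusted p = 2.82e-05). ASRGL1, an asparaginase, fell from 13.4 ± 3.04 to 8.03 ± 1.61 CPM (adjusted p = 0.00104), and SLC1A5, a glutamine transporter, from 21.5 ± 3.20 to 15.1 ± 2.55 CPM (adjusted p = 0.00352; 0.0749 with the GC trend removed). The higher genes came to 2 without NC replicate 2, without OE CD51 ICD replicate 1 or with library size only.

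ATF5 is linked to the stress response of mitochondria, and 15 genes of that response were counted. Of these, 10 were lower (66.7%), 1 higher (6.67%) and 4 not called, with a median of -0.37. TRAP1, the mitochondrial HSP90, fell from 151 ± 3.58 to 66.5 ± 11.2 CPM (log2 fold change -1.19, adjusted p = 1.28e-11). The chaperonin partner HSPE1 fell from 35.2 ± 0.938 to 18.6 ± 2.14 CPM (-0.92, adjusted p = 9.88e-08), and the co-chaperone DNAJA3 from 103 ± 2.16 to 61.9 ± 7.12 CPM (-0.74, adjusted p = 6.30e-08). YME1L1, a protease of the inner membrane, rose from 44.2 ± 2.89 to 60.5 ± 6.97 CPM (0.45, adjusted p = 3.84e-04).

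The ATF6 and IRE1-XBP1 arms make up the unfolded protein response together with the ATF4 arm. The 7 lower genes were chosen with their difference known, so they are not contrasted with the genes listed here for ATF6 and IRE1-XBP1. All 23 listed genes were tested, 18 were higher (78.3%), none lower and 5 not called, with a median of 0.92 and 9 genes at least 2-fold higher (6.89% of all genes tested). HSPA5 encodes the chaperone BiP and rose from 551 ± 33.5 to 1571 ± 79.2 CPM (log2 fold change 1.51, adjusted p = 7.58e-16). HSP90B1 rose from 223 ± 31.5 to 749 ± 124 CPM (1.74, adjusted p = 1.11e-14), XBP1 from 93.9 ± 1.21 to 202 ± 1.29 CPM (1.10, adjusted p = 8.58e-13), and HERPUD1, a component of protein disposal from the endoplasmic reticulum, from 62.4 ± 5.34 to 131 ± 4.97 CPM (1.07, adjusted p = 1.57e-11). The count of lower genes was 0 also at an unadjusted p under 0.05 in edgeR. At an adjusted p under 0.05 it was 0 in DESeq2 and in limma, and 1 in edgeR with library size as the only scaling.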

How the data were processed

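For all 6 libraries the authors deposited whole-number gene counts and, in another table, FPKM values, with GENCODE 29 gene IDs, coordinates and lengths per the file headers (all 58735 matched). The submitters' processing notes name hg38; the aligner, counting program and strand setting were not given in the sources used here. The deposited FPKM values equalled count over gene length over a library constant (0.961 to 1.05 times its total).

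Counts were tested with edgeR 4.0.16 (R 4.3.3): filterByExpr kept 13787 genes, TMM scaling, glmQLFit and glmQLFTest of OE CD51 ICD against NC, two-sided, Benjamini-Hochberg adjustment over all genes tested, threshold 0.05. The biological coefficient of variation was 9.44%. CPM are TMM-scaled; standard errors come from the F statistic. Code was tested on simulated data. The 10 genes, the gene lists and the rule for named genes were chosen with earlier results of these data known. Named were the 10, ITGAV, a fixed set of known genes, and in each list up to 3 called genes per direction with the largest change, groups apart and at least 5 CPM on average, or all where 5 or fewer were called. Alternatives were other scalings, filters, DESeq2 1.42.0, limma 3.58.1 on log2(FPKM + 1) or log2(FPKM + 0.1), GC or length trends removed, a replicate block and each library left out. Same-numbered libraries did not deviate together, so numbers were not used as pairs. Promoters came from RefSeq on GRCh38.p14. Some genes that the rule would name are not reported here.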

Additional observations from a re-analysis of the deposited data

How the results depend on the processing

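Of the set described, 7 genes were sorted as lower in each of the 16 alternatives; they were chosen with their difference known, so this count is no sign of stability. ATF4, the only higher one, fell short of the threshold in 5, leaving a count of 0 without TMM scaling and with no filter beyond 1 count, and a range of 0 to 1 with each library left out. With library size only (no TMM), 1 factor that pairs with ATF4 and 2 glutamine, aspartate, asparagine and proline genes were higher, and 1 gene of the ATF6 and IRE1-XBP1 arms was lower. With no filter, 1 pairing factor was higher. In limma on log2(FPKM + 1) and on log2(FPKM + 0.1), 1 pairing factor and 1 serine and one-carbon gene were higher. With the GC trend removed, 3 eIF2 genes and 2 mitochondrial stress genes were higher, and with the length trend removed 3 eIF2 genes were lower and 1 serine and one-carbon gene higher. With each library left out, the eIF2 list held 5 to 10 higher and 3 to 5 lower genes, the pairing factors 1 to 2 higher, the serine and one-carbon list 1 to 3 higher, and the glutamine, aspartate, asparagine and proline list 2 to 5 higher. The mitochondrial stress list held 8 to 9 lower genes, against 10 with all libraries, and the other ATF4 targets 8 to 12 higher and 5 to 7 lower. All genes ran from 2985 to 3612 higher and from 2916 to 3644 lower. The cause of these shifts was not tested. Of 941 values for 59 named genes over these alternatives, 876 kept their side of the threshold, of which 1 changed sign (MTHFD2 with the GC trend removed, not called either way). The 59 hold genes of the set described and called genes picked for a large change, so this tally is no sign of stability.

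With the replicate number as a block, 3437 genes were higher and 3552 lower, against 3469 and 3559 without it. Same-numbered libraries correlated in their deviations from the group means at -0.05 to 0.05, so no shared deviation was seen. Whether the numbers mark a shared step of preparation was not tested.

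Depth limits DDIT3 (45 to 69 counts per library) and ASNS, and with 3 libraries a group no exact test of a single value can go below 0.1. Counts of genes that share exons depend on a counting rule not given in the sources used here. Protein, phosphorylated eIF2 and translation were not measured.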
